A study of Mus musculus with 6 samples.

Results

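The 57 genes described here are standard genes of the mammalian cell cycle, taken by symbol from the 24129 gene names of the deposited table. They were ordered by phase into 14 G1 regulators (cyclins, cyclin-dependent kinases or CDKs, CDK inhibitors and pocket proteins), 19 E2F and replication genes, and 24 G2/M genes. Their RNA was compared between T1 and T2 cells. Both populations came from 4T1GFP, a GFP-tagged form of the 4T1 mouse mammary carcinoma line, a model of triple negative breast cancer grown in BALB/c mice.

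T1 cells, labelled 4T1A, had low GFP and grew attached with an epithelial shape, and their labels give a high proliferation rate and an aggressive phenotype in vivo. T2 cells, labelled 4T1NA, grew round and loosely attached, and their labels give a low proliferation rate and less aggressive behaviour. Both were kept in DMEM/F-12 medium with 10% serum and antibiotics, but T2 cells were passaged without trypsin. Each population was represented by 3 replicate libraries, which the series' design text calls independent, and no treatment separated them. Per the study's methods the populations were sorted by GFP from tumor cells that had outgrown a fibroblast culture from a resected tumor, so they are 2 sorted populations of a single line, and a difference between them cannot be told apart from a difference between their histories or ways of passage. Parental 4T1GFP cells were not analysed here.

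A cell enters the cycle when D cyclins bound to CDK4 or CDK6, and then E cyclins bound to CDK2, phosphorylate the retinoblastoma family of pocket proteins, while CDK inhibitors oppose these kinases. E2F factors released from the pocket proteins drive genes of replication, among them the MCM helicase that is loaded on origins in G1. B-Myb, FoxM1 and the MuvB complex then drive the G2/M genes, whose products condense chromosomes, build the spindle and guard their separation. Many of these genes are transcribed in a part of the cycle only, so in RNA from a whole culture fewer cells in a phase and less RNA per cell cannot be told apart.

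The libraries held 18133227 to 20839686 reads counted on genes, and 1 read was worth 0.928 to 1.06 normalized counts. The 6 epithelial markers checked summed to 68559.7 to 76857.1 normalized counts in T1 libraries and 37484.7 to 43414.8 in T2 libraries. Krt8 and Krt18 made up most of the sum and were not called, whereas Epcam (3141 ± 314.1 against 34.7 ± 3.49), Cdh1 (14748 ± 908.1 against 465.4 ± 16.2), Krt19 (3177 ± 539.9 against 2.91 ± 2.54) and Cldn4 (5530 ± 1370 against 5.29 ± 2.73) were far higher in T1 (SD, n = 3 each). Of the 10 fibroblast markers 4 (Col3a1, Lum, Pdgfrb and Thy1) were at 0 in every library, and their sum was 231.6 to 246 in T1 and 996.8 to 1298.1 in T2. Most of it was Pdgfra, higher in T2 (199.3 ± 7.98 in T1 and 1099 ± 170.5 in T2), while Col1a1, the other fibroblast marker tested, was higher in T1 (22.4 ± 6.78 against 0.326 ± 0.565). Of the 10 leukocyte markers 3 were at 0 throughout (sums of 386.2 to 462.6 in T1 and 172.3 to 208.9 in T2). Most of these sums came from the 2 tested. Cd14 was higher in T1 (340.2 ± 30.2 against 83.1 ± 16.9), and Cd68 was not called (72.9 ± 14.8 against 94.6 ± 20.7). The 6 endothelial markers summed to at most 5.29. The part of these markers in the results below was not tested.

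Of the 57 genes 55 were tested and 29 differed between T1 and T2 cells, with 8 higher in T1 and 21 higher in T2. Among the 11514 genes tested, 49.5% differed at the same threshold, 25.1% higher and 24.4% lower in T1 (adjusted p under 0.01, limma with Benjamini-Hochberg adjustment over all genes). The share of members called, 52.7%, was thus near that of all genes, while the split by direction was uneven. The log2 fold changes are given throughout as T1 minus T2 on the log2(normalized count + 1) scale, so that positive values are higher in T1. Their median was -0.23 over the 55 members and -0.0055 over all genes tested. The differences were also small, with a median absolute log2 fold change of 0.34 against 0.45 over all genes.

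Only Ccnd2 also passed the size filter used by the study, an absolute log2 fold change above 2, which 8.37% of all genes tested passed together with the test, 4.17% higher and 4.2% lower in T1. An absolute log2 fold change above 1 was reached by 4 members (7.27%), namely Ccnd2, E2f8, Ccnd1 and E2f1, and by 21.4% of all genes tested. Every T1 value lay above every T2 value for 10 members and below for 30, where 34.2% and 33.9% of all genes expressed at this level did so (68.1% in either direction). With 3 libraries against 3 an exact permutation test of a single gene cannot give a two-sided p under 0.1, so calls rest on the fit across genes.

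**Figure D1:**
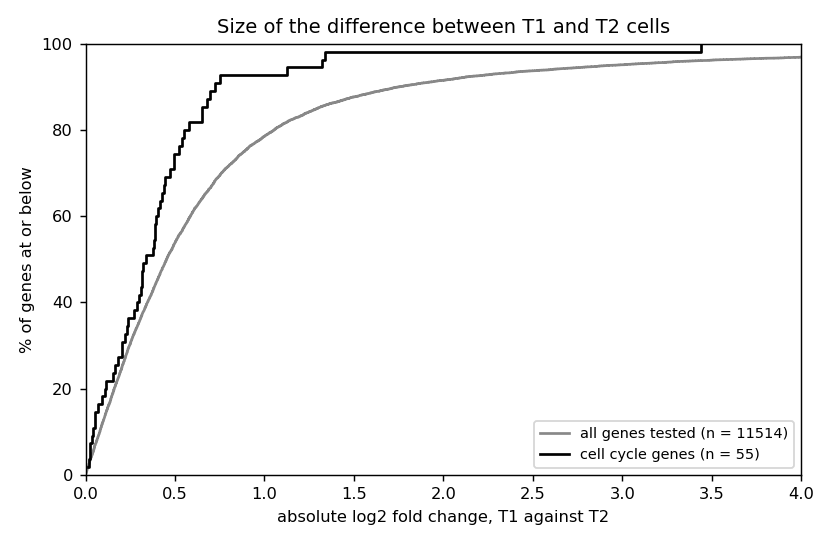
Cumulative share of genes (y axis, percent) at or below an absolute log2 fold change between T1 and T2 cells (x axis, log2 units), for the 55 cell cycle genes tested (black) and all 11514 genes tested (grey). The black curve lies to the left of the grey one over most of its course, with medians of 0.34 and 0.45. The 2 sets were not matched for expression level. Ccnd2 is the single cell cycle gene beyond 2.

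Of the 29 calls, 16 stayed under an adjusted p of 0.01 in each of the 16 alternative analyses. These were Ccnd2, Mcm5, Cdc20 and Plk1, higher in T1, and Ccnd1, Cdk6, Rbl1, E2f1, E2f8, Mcm7, Pcna, Cdc25b, Top2a, Cenpe, Cenpf and Kif11, higher in T2. The other 13 calls were lost in at least 1 alternative, and 0 of the 29 changed direction. Each of the 13 was lost without a filter on low counts, and 11 of them also in limma without a variance trend. Without T1 replicate 1, T1 replicate 2, T2 replicate 1 or T2 replicate 3 the 8 calls higher in T1 fell to 4, and the 21 lower in T1 came to between 15 and 22 as each library was left out.

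**Figure D2:**
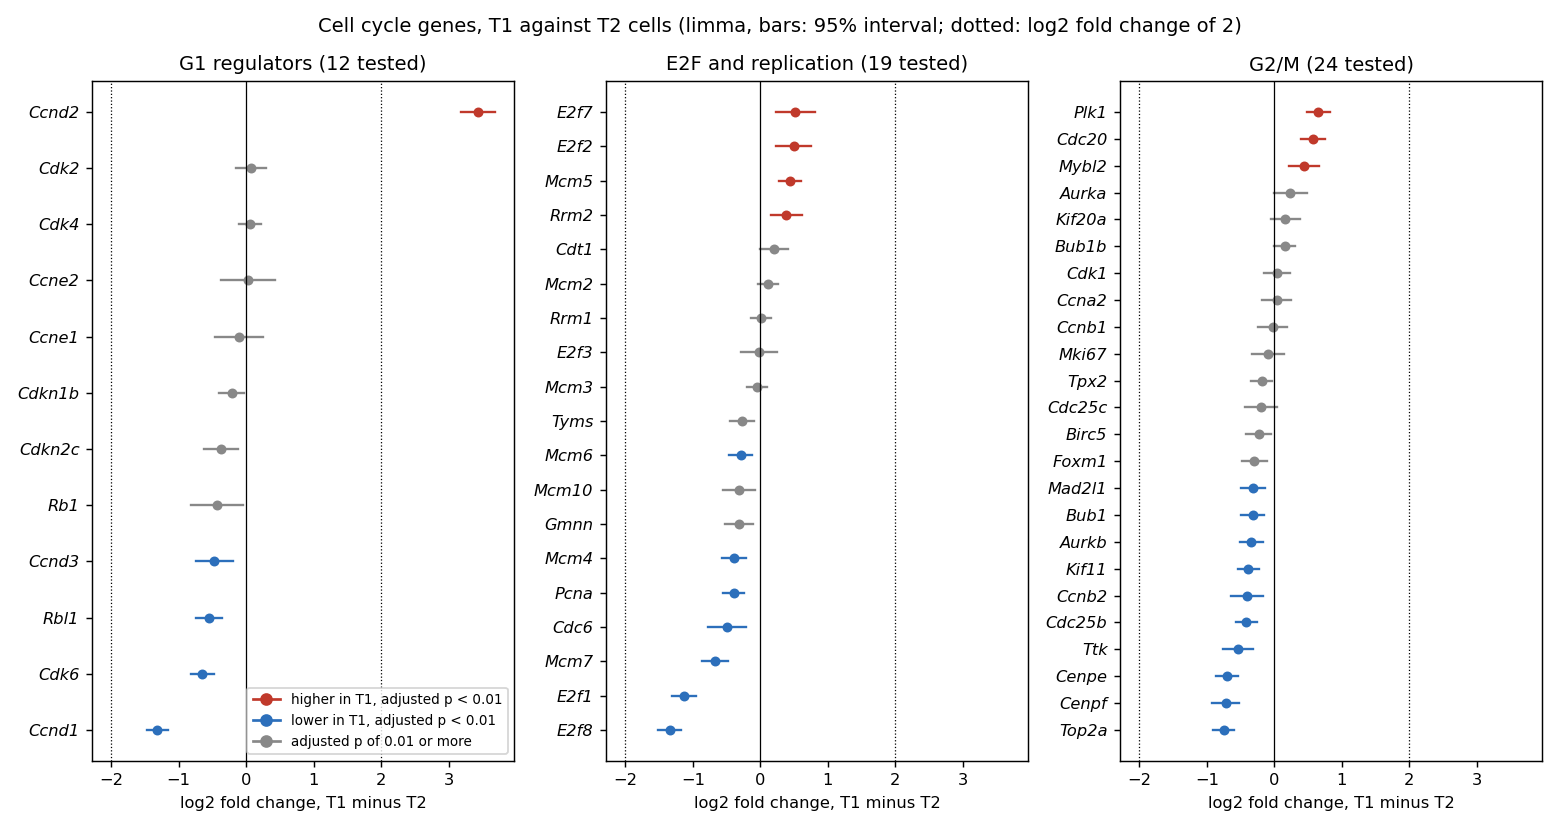
Log2 fold change (x axis, T1 minus T2) of each of the 55 tested cell cycle genes (y axis), in panels by phase, with bars for the 95% interval from limma and dotted lines at a log2 fold change of 2 in either direction. Ccnd2 at 3.44 stands alone to the right, Ccnd1, E2f1 and E2f8 lie beyond 1 on the T2 side, and all 24 G2/M genes lie between -0.75 and 0.65.

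Among the G1 regulators, the D cyclins carried the widest differences, in opposite directions. Ccnd2 (cyclin D2) was 10.8 times higher in T1 cells and Ccnd1 (cyclin D1) was 2.5 times higher in T2 cells. Of the 12 G1 regulators tested, 1 was called higher in T1 (Ccnd2) and 4 lower (Ccnd1, Ccnd3, Cdk6 and Rbl1). These calls were 41.7% of the group, against 49.5% of all genes tested, and the group's median log2 fold change was -0.30.

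Cyclins D1, D2 and D3 bind CDK4 and CDK6 and link growth signals to cell cycle entry. Ccnd1, on chromosome 7 of mm10 (144929931 to 144939925, minus strand), had 21540.7, 21525.8 and 21664.3 normalized counts in the T1 libraries and 55436.3, 51520.8 and 54760.3 in the T2 libraries. All T2 libraries were far above the T1 libraries, which differed among themselves by less than 1%. Its log2 fold change was -1.32 ± 0.07 (SE, n = 3 each, adjusted p = 1.47e-07, limma). Its exons share 1100 bases with those of LTO1 on the other strand.

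Ccnd2, on chromosome 6 (127125162 to 127152193, minus strand), ran the other way. It had 2983.8, 3134.1 and 3514.6 normalized counts in T1 and 289.8, 336.9 and 261.7 in T2. The lowest T1 library was thus well above the highest T2 library, with a log2 fold change of 3.44 ± 0.11 (SE, adjusted p = 5.79e-09, limma) and a 95% interval of 3.19 to 3.69. Among the alternatives, the log2 fold change stayed between 3.35 and 3.54. The exons of Ccnd2 share 368 bases with 9330179D12Rik and 372 with Gm43126 on the other strand.

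Ccnd3 (cyclin D3) had 1184, 1086.2 and 872.5 normalized counts in T1 and 1622.5, 1407.8 and 1315.8 in T2. The groups did not overlap, with a log2 fold change of -0.47 ± 0.13 (SE, adjusted p = 0.0075, limma). This call was lost without T1 replicate 2 or 3 and without any of the 3 T2 replicates, with an adjusted p of at most 0.04. It was also lost under quantile normalization, without a filter on low counts and without a variance trend. The annotation also holds a pseudogene, Ccnd3-ps, so reads of Ccnd3 may be split with a near copy.

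Set on a common scale of normalized counts per kb of exon, the 3 D cyclins together came to 5042.7 ± 26.8 in T1 and 11644 ± 448.2 in T2 (SD, n = 3 each). Ccnd1 made up most of this sum in both populations, 90.9% ± 0.169 in T1 and 98.3% ± 0.16 in T2. Ccnd2 made up 6.77% ± 0.54 in T1 and 0.271% ± 0.0447 in T2, and Ccnd3 2.37% ± 0.371 and 1.42% ± 0.138. On this scale the order was Ccnd1, Ccnd2 and Ccnd3 in T1 but Ccnd1, Ccnd3 and Ccnd2 in T2, without overlap between neighbours in any library. Lengths here and below are of all annotated exons of a gene merged, not of the transcripts expressed. Orders and shares between genes depend on these lengths.

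The E cyclins, which activate CDK2 at the start of S phase, were not called. Ccne1 averaged 427.9 ± 63.4 in T1 and 463.8 ± 82 in T2, and Ccne2 328.8 ± 82.1 and 317.3 ± 34.9 (normalized counts, SD, n = 3 each). Their log2 fold changes of -0.11 (95% interval -0.46 to 0.24) and 0.03 (-0.37 to 0.43) leave room for differences in either direction.

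Of the G1 kinases, only Cdk6 was called. It had 2939.4, 2623.5 and 2582.5 normalized counts in T1 and 4069.5, 4367.8 and 4330.5 in T2. Every T2 library exceeded every T1 library, with a log2 fold change of -0.65 ± 0.08 (SE, adjusted p = 4.48e-05, limma). Cdk4, the partner kinase with the highest level, had 9584.2, 9479.5 and 10215.8 in T1 and 10093.4, 9083.7 and 9054.5 in T2. These ranges overlapped, and the log2 fold change was 0.05 with a 95% interval of -0.11 to 0.22. Cdk2 averaged 1217 ± 137 in T1 and 1155 ± 45.3 in T2 and was not called (log2 fold change 0.07, 95% interval -0.15 to 0.29).

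Per kb, Cdk4 made up 65.2% ± 2.59 of the sum of Cdk1, Cdk2, Cdk4 and Cdk6 in T1 and 63.4% ± 0.098 in T2. Cdk6 made up 4.21% ± 0.281 and 6.69% ± 0.646 (SD, n = 3 each). The sum itself was 4606.6 ± 31.7 in T1 and 4566.5 ± 284.3 in T2, a difference smaller than the spread of the T2 libraries.

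**Figure D3:**
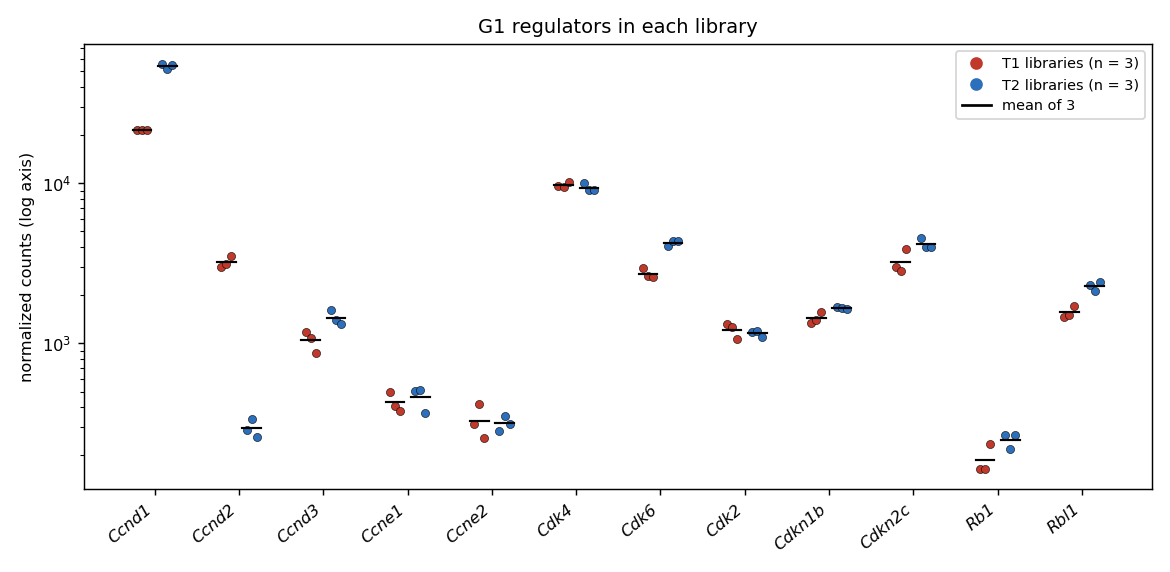
Normalized counts (y axis, log scale) of the 12 tested G1 regulators in each of the 3 T1 libraries (red) and 3 T2 libraries (blue), with a bar at the mean of 3. Ccnd2 is near 3000 in T1 and near 300 in T2, Ccnd1 shows the opposite order at a far higher level, and the points of Ccne1, Ccne2, Cdk2, Cdk4 and Rb1 overlap.

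The CDK inhibitors fell into a measured pair and a pair without reads. Cdkn2a, which encodes p16 and p19ARF, and Cdkn2b, which encodes p15, had 0 reads in all 6 libraries, which allows up to 3 reads in each by counting error alone. They lie side by side on chromosome 4 of mm10 (89274471 to 89294653 and 89306299 to 89311039, minus strand). Mtap, the nearest protein-coding gene before them (89137122 to 89181081), was strongly expressed, at 14307.13 to 16135.24 normalized counts in T1 and 20916.29 to 22809.73 in T2. Dmrta1, the nearest such gene after them, was at 0 in every library. The cause of the absent reads was not tested.

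Cdkn1b (p27) had 1338.5, 1408 and 1561.6 normalized counts in T1 and 1698.9, 1664.8 and 1638.7 in T2. Every T1 value was below every T2 value, but the log2 fold change of -0.22 ± 0.08 (SE) did not pass the threshold (adjusted p = 0.0432, limma). Cdkn2c (p18), which inhibits CDK4 and CDK6, had 2999.7, 2846.7 and 3880.6 in T1 and 4532.6, 4020.7 and 3983.5 in T2. Here too the groups did not overlap, with a log2 fold change of -0.38 ± 0.11 (SE, adjusted p = 0.0153, limma). T1 replicate 3 was the highest T1 library for both, and without it their adjusted p fell to 0.00945 for Cdkn1b and 0.000399 for Cdkn2c.

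The pocket proteins restrain E2F factors. Rbl1 (p107) had 1469.7, 1502.9 and 1706 normalized counts in T1 and 2328.5, 2125.5 and 2405.1 in T2. T2 was higher in every library, with a log2 fold change of -0.55 ± 0.09 (SE, adjusted p = 0.000332, limma). Rb1, the retinoblastoma gene, was low, at 188 ± 40.1 in T1 and 250.9 ± 26.7 in T2 (SD, n = 3 each), and the groups overlapped (log2 fold change -0.43, adjusted p = 0.0515, limma). Without T1 replicate 3 its adjusted p was 0.00648.

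Promoters of the members were searched on both strands, over 250 bases before each start, for E2F letters (TTCCCGC or TTGGCGC or TTCGCGC or TTGCCGC), for the cell cycle homology region or CHR (TTTGAA or TTCGAA), which the MuvB complex binds, and for CCAAT, which NF-Y binds. RefSeq entries of GRCm38.p6 were found for 45 of the 57 members, with 51 promoters. Each start is that of its entry, which can lie inside the annotated gene, as for Cdk6 and E2f1 below. The shares count such windows as they stand. E2F letters were in 33.3% of the member promoters and in 7.89% of all 32851 promoters, CHR letters in 25.5% and 17.1%, and CCAAT in 64.7% and 33.8%. Among the 11310 promoters of genes tested the shares were 14.4%, 11.8% and 35.5%. A match is a description of the letters and not of binding. The promoters shown in this and the following sections belong to the called members with an entry and the widest differences in each phase. The windows of Cdk6 (chr5:3343643-3343892, plus strand) and E2f1 (chr2:154569427-154569676, minus strand), picked by the same rule, held none of these letters and are not shown. Both lie inside the annotated gene, which begins at 3341485 for Cdk6 and at 154569892 for E2f1. The bases before these annotated starts were not searched for either gene, so nothing follows for them. Ccnd1 and Ccnd2 had no entry, so their promoters were not searched.

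Of the 13 promoters of G1 regulators, 30.8% held E2F letters, 7.69% CHR letters and 23.1% CCAAT. The promoter of Rbl1, a known target of E2F factors, is shown with its E2F match in capitals, at 17 bases before the start (chr2:157204535-157204784, minus strand).
Rbl1: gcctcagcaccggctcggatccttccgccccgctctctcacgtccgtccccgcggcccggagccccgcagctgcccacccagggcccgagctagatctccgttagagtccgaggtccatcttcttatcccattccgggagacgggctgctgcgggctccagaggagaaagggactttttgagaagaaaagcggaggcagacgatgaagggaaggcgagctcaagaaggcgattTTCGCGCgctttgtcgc

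Other regulators of G1, on a list chosen with earlier results of these data known, were tested in 14 of 15 cases. Of these 10 were called (71.4%, against 49.5% of all genes tested), 3 higher and 7 lower in T1. Their median log2 fold change was -0.61, and their median absolute log2 fold change 0.69, against 0.40 for the G1 members and 0.45 for all genes tested. As the list was not chosen blind to the data, these values only describe it. Cdkn1a, which encodes the CDK inhibitor p21, had 175.6, 232.5 and 133.7 normalized counts in T1 and 1719.4, 2009.8 and 1483.7 in T2. All T2 libraries were thus several times above all T1 libraries, 9.62 times in the means, with a log2 fold change of -3.28 ± 0.19 (SE, adjusted p = 2.57e-07, limma). Ccng2 (cyclin G2), an atypical cyclin found in resting cells, had 164, 170.2 and 320.1 in T1 and 1863.4, 1507.1 and 2038.6 in T2. It was 8.27 times higher in the T2 means (log2 fold change -3.10 ± 0.23, SE, adjusted p = 1.55e-06, limma). These were the only 2 genes of the list past both filters.

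Myc, a transcription factor that promotes growth and cell cycle entry, had 8320.9, 5907.4 and 8106.7 normalized counts in T1 and 3346.8, 3140.2 and 2702.1 in T2. It was higher in every T1 library (log2 fold change 1.27 ± 0.13, SE, adjusted p = 1.62e-05, limma). Tfdp2, a partner of E2F factors, was lower in T1 (302.8 ± 73.2 against 930.3 ± 114.4, log2 fold change -1.64), while the other partner, Tfdp1, was higher (6172 ± 650.6 against 4589 ± 213.4, log2 fold change 0.42, adjusted p = 0.0019, limma). The call of Tfdp1 was lost without T1 replicate 1 (adjusted p = 0.0104) or T1 replicate 2 (adjusted p = 0.011). The remaining calls were E2f4, higher in T1, and Cdkn2d, E2f5, E2f6 and Cks1b, lower. Rbl2, Cdc25a, Skp2 and Fbxw7 were not called, and Cdkn1c, at no more than 1.06 in any library, was not tested.

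The E2F factors differed in both directions. E2f8 and E2f1 were more than 2 times higher in T2 cells, whereas E2f7 and E2f2 were higher in T1 cells by less than 1.5 times and E2f3 did not differ detectably. Of the 19 E2F and replication genes, all tested, 4 were called higher in T1 (E2f2, E2f7, Mcm5 and Rrm2) and 7 lower (E2f1, E2f8, Mcm4, Mcm6, Mcm7, Cdc6 and Pcna). These calls were 57.9% of the group, near the 49.5% of all genes tested, and the group's median log2 fold change was -0.27. Without T1 replicate 1, T1 replicate 2, T2 replicate 1 or T2 replicate 3, 1 of the 4 calls higher in T1 was left, that of Mcm5.

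E2f1, an activator of S phase genes, on chromosome 2 (154559407 to 154569892, minus strand), had 1142.7, 1249.9 and 1196.6 normalized counts in T1 and 2738.8, 2659 and 2450.6 in T2. The groups were far apart, with a log2 fold change of -1.13 ± 0.08 (SE, adjusted p = 1.19e-06, limma). E2f8, an atypical E2F that represses E2F targets late in S phase, on chromosome 7 (48866429 to 48881596, minus strand), had 2424.1, 2108.3 and 2199.9 in T1 and 5838.9, 5683.5 and 5495 in T2. Its log2 fold change of -1.34 ± 0.08 was the most negative of all members (SE, adjusted p = 2.54e-07, limma). Its exons share 610 bases with Gm2788 on the other strand.

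E2f7, the other atypical repressor, had 1925.7, 2005.1 and 1502.1 normalized counts in T1 and 1258.2, 1424.2 and 1095.9 in T2. The groups did not overlap, with a log2 fold change of 0.52 ± 0.13 (SE, adjusted p = 0.0053, limma). E2f2, an activator, had 522.7, 515.2 and 527 in T1 and 351.5, 421.8 and 340.5 in T2, again without overlap (log2 fold change 0.50 ± 0.12, SE, adjusted p = 0.0039, limma). Both calls were lost without T1 replicate 1, T1 replicate 2, T2 replicate 1 or T2 replicate 3, with an adjusted p of at most 0.0273 for E2f7 and 0.0191 for E2f2. E2f3 averaged 1044 ± 159 in T1 and 1049 ± 71.5 in T2 (log2 fold change -0.02, 95% interval -0.29 to 0.25).

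Summed per kb, the 5 E2F factors came to 1291.7 ± 65.8 in T1 and 2280.8 ± 95.3 in T2 (SD, n = 3 each). E2f8 made up 31.9% ± 2.21 of the sum in T1 and 45.7% ± 0.955 in T2, and E2f1 29.4% ± 2.15 and 36.4% ± 0.759. E2f7 made up 15.5% ± 1.64 in T1 and 6.12% ± 0.589 in T2, E2f3 14.8% ± 1.56 and 8.48% ± 0.653, and E2f2 8.29% ± 0.505 and 3.33% ± 0.321. At the head of this order E2f8 was ahead of E2f1 in T1 replicates 1 and 3 and behind it in T1 replicate 2. In T2 libraries E2f8 was ahead of E2f1 in each. Below them, E2f7 was ahead of E2f3 in each T1 library by a small margin, though their ranges overlapped.

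Of the 20 promoters of E2F and replication genes, 50% held E2F letters, 25% CHR letters and 75% CCAAT. The E2f8 promoter is shown with 2 capital runs (chr7:48881597-48881846, minus strand). The first joins ATTGG, which is CCAAT on the other strand, from 112 bases before the start with the overlapping E2F letters TTGGCGC, and the second is the CHR read on the other strand, TTCAAA, 20 bases before the start.
E2f8: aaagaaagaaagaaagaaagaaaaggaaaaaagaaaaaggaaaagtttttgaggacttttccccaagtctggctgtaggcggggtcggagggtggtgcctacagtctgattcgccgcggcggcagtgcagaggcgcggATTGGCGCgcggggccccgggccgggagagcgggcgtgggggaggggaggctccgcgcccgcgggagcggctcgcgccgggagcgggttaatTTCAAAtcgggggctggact

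The 6 subunits of the MCM helicase did not move together. Mcm5 was higher in T1, Mcm4, Mcm6 and Mcm7 were higher in T2, and Mcm2 and Mcm3 were not called. Mcm5, on chromosome 8 (75109569 to 75128439, plus strand), had 12162.8, 12223.9 and 11385 normalized counts in T1 and 9049.6, 9048.9 and 8214.7 in T2. Each T1 library exceeded each T2 library, with a log2 fold change of 0.44 ± 0.07 (SE, adjusted p = 0.00038, limma). Mcm7, on chromosome 5 (138164583 to 138172422, minus strand), had 5354, 4874.1 and 5317.3 in T1 and 9100.5, 7445.5 and 8357.6 in T2. It showed the opposite order without overlap (log2 fold change -0.68 ± 0.09, SE, adjusted p = 7.17e-05, limma). Mcm7 shares 321 exonic bases with Ap4m1 on the other strand and hosts Mir25 and Mir93 on its own strand.

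Mcm6 had 7399.3, 7194.5 and 7445.9 normalized counts in T1 and 9131.8, 8203.2 and 9640 in T2. It was lower in all T1 libraries (log2 fold change -0.29 ± 0.08, SE, adjusted p = 0.0078, limma). Leaving out any library except T2 replicate 2 raised its adjusted p above 0.01, to 0.0322 at most. Mcm4 averaged 4699 ± 326.8 in T1 and 6140 ± 315.8 in T2 (log2 fold change -0.39, adjusted p = 0.0015, limma). The call of Mcm4 was lost without a filter on low counts and without a variance trend. Mcm3 had 8489.1, 8131 and 7931 in T1 and 8693.2, 8480.7 and 8313.1 in T2, which overlapped (log2 fold change -0.05, 95% interval -0.20 to 0.09). Mcm2 averaged 5962 ± 210.5 and 5495 ± 63.2 and was not called (log2 fold change 0.12, adjusted p = 0.148, limma).

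The helicase is built from equal numbers of these subunits, but their RNA levels per kb of merged exons were unequal. The order of the subunits depends on these annotated lengths. Mcm5 made up 29.6% ± 0.778 of the summed counts per kb in T1 and 20.4% ± 1.4 in T2, and Mcm7 made up 11.6% ± 0.62 and 17.4% ± 1.17 (SD, n = 3 each). Mcm4 took 13% ± 0.656 and 15.9% ± 0.734, Mcm6 15.6% ± 0.486 and 17.9% ± 1.11, Mcm3 21.6% ± 0.237 and 21% ± 0.651, and Mcm2, the lowest in both, 8.51% ± 0.448 and 7.34% ± 0.208. In T1 libraries Mcm5 led Mcm3 in each, and in T2 libraries their shares overlapped. The sums were 10079 ± 237.9 in T1 and 10764.4 ± 353.7 in T2, and their ranges did not overlap by a small margin only, with 10330.3 in the highest T1 library and 10387.8 in the lowest T2 library.

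**Figure D4:**
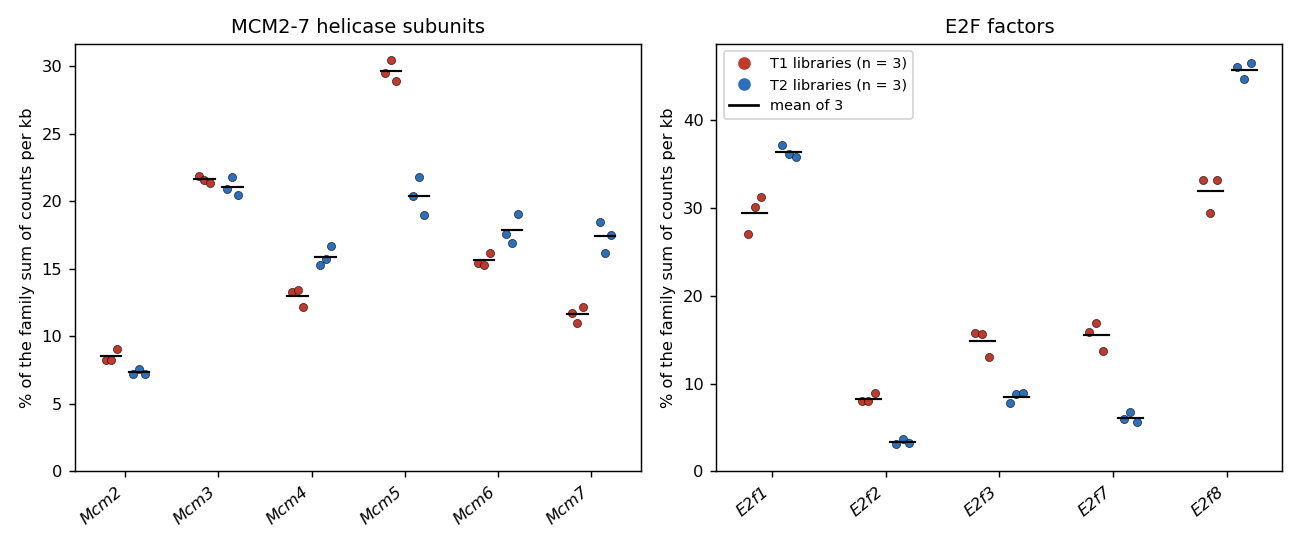
Share of each gene in its family's sum of normalized counts per kb of exon (y axis, percent), for the 6 subunits of the MCM helicase (left) and the 5 E2F factors (right), in T1 libraries (red) and T2 libraries (blue), with a bar at the mean of 3. Mcm5 falls from 29.6% in T1 to 20.4% in T2 while Mcm7 goes from 11.6% to 17.4%, and E2f8 and E2f1 take larger shares in T2 while E2f2, E2f3 and E2f7 take smaller ones.

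Mcm10, an initiation factor outside the helicase ring, averaged 2089 ± 272.9 in T1 and 2578 ± 206.3 in T2 and was not called (adjusted p = 0.0276, limma). Of the licensing factors, Cdc6, which loads the helicase, was lower in T1 (1559 ± 268.1 against 2176 ± 189.3, log2 fold change -0.49, adjusted p = 0.0064, limma), a call lost without any of the 3 T2 libraries (adjusted p of 0.0227, 0.0293 and 0.0122 without T2 replicates 1, 2 and 3). Cdt1, its partner, averaged 4450 ± 177.7 and 3882 ± 494.5 (log2 fold change 0.20, adjusted p = 0.0847). Gmnn, the inhibitor of Cdt1, averaged 1136 ± 17.3 and 1417 ± 152.5 (log2 fold change -0.31, adjusted p = 0.0153), and without T2 replicate 2 its adjusted p was 0.00431.

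Pcna, the sliding clamp of DNA polymerases, had 4781.5, 4804.4 and 4415.4 normalized counts in T1 and 6161, 6075.6 and 6151.1 in T2. Every T2 library was higher, with a log2 fold change of -0.39 ± 0.07 (SE, adjusted p = 0.000566, limma), and Pcna-ps1 and Pcna-ps2 are annotated pseudogenes that could share its reads. Rrm1 and Rrm2 encode the subunits of ribonucleotide reductase, which makes deoxynucleotides. Rrm2 was higher in T1 (8195 ± 1229 against 6210 ± 121.3, log2 fold change 0.39, adjusted p = 0.0081, limma), while Rrm1 averaged 8011 ± 219 and 7926 ± 252.9 (log2 fold change 0.02, 95% interval -0.13 to 0.16). The call of Rrm2 was lost without any single library other than T1 replicate 3, with an adjusted p of at most 0.0374. It was also lost under quantile normalization, without a filter on low counts and without a variance trend. Tyms, the thymidylate synthase, averaged 1888 ± 142.7 in T1 and 2277 ± 10.2 in T2 and did not pass (log2 fold change -0.27, adjusted p = 0.0129, limma). Its annotated pseudogene is Tyms-ps.

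A list of 34 other replication genes, all tested, was also chosen with earlier results known. Of these 16 were called (47.1%, against 49.5% of all genes tested), 3 higher and 13 lower in T1, with a median log2 fold change of -0.23. Those given here with their values were lower in T1. Rpa3, a subunit of the single-strand binding protein, averaged 577.7 ± 38.5 in T1 and 1093 ± 109.8 in T2 (log2 fold change -0.92, adjusted p = 3.34e-05, limma). Cdc45, an activator of the helicase, averaged 970.7 ± 4.68 and 1803 ± 81.1 (log2 fold change -0.89), and Tk1, the thymidine kinase of S phase, 3048 ± 270.6 and 4827 ± 315.5 (log2 fold change -0.67). The 3 higher in T1 were Orc1, Orc2 and Dbf4. Orc1 lost its call without any single library other than T1 replicate 3, and Orc2 without T1 replicate 1, T1 replicate 2, T2 replicate 1 or T2 replicate 2, which left 1 or 2 such genes.

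The G2/M genes had the narrowest range of log2 fold changes of the 3 groups. Of 24 genes, all tested, 3 were called higher in T1 (Plk1, Cdc20 and Mybl2) and 10 lower (Top2a, Cenpf, Cenpe, Ttk, Cdc25b, Ccnb2, Kif11, Aurkb, Bub1 and Mad2l1). These calls were 54.2% of the group, near the 49.5% of all genes tested, and the group's median log2 fold change was -0.22. The absolute log2 fold change was under 1 for each of the 24. Without T1 replicate 1 or T1 replicate 2 the 10 calls lower in T1 fell to 6.

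Cdk1 and its cyclins start mitosis. Ccna2 averaged 6405 ± 680.8 in T1 and 6233 ± 541.2 in T2, Ccnb1 1706 ± 150.6 and 1736 ± 157.2, and Cdk1 5984 ± 437.8 and 5823 ± 548.1 (normalized counts, SD, n = 3 each). Their values overlapped between groups, and the 95% intervals of their log2 fold changes lay between -0.24 and 0.25. Ccnb2 was lower in T1 (2396 ± 330.3 against 3161 ± 267, log2 fold change -0.40, adjusted p = 0.0073, limma), a call lost without T1 replicate 1, T1 replicate 2, T2 replicate 1 or T2 replicate 3 (adjusted p of at most 0.0377). Ccnb1 and Ccnb2 have annotated pseudogenes, Ccnb1-ps and Ccnb2-ps.

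Mki67, which encodes the proliferation antigen Ki-67, had 18671.2, 13950.9 and 15138.7 normalized counts in T1 and 18080.6, 15622.1 and 16837.7 in T2. The T1 libraries spanned the whole range of the T2 libraries, and the log2 fold change was -0.09 ± 0.11 (SE, adjusted p = 0.49, limma). Its 95% interval ran from -0.33 to 0.15.

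Plk1, a kinase of mitotic entry and spindle assembly, on chromosome 7 (122159439 to 122169873, plus strand), had 4964.6, 4860.2 and 4680.9 normalized counts in T1 and 3322.4, 2905.7 and 3013.8 in T2. All T1 libraries were higher, with a log2 fold change of 0.65 ± 0.08 (SE, adjusted p = 3.64e-05, limma). Cdc20, the activator of the anaphase-promoting complex, had 6614.2, 6591.8 and 5837.5 in T1 and 4582.6, 4056.5 and 4128.2 in T2. The groups did not overlap (log2 fold change 0.58 ± 0.08, SE, adjusted p = 0.000142, limma). Mybl2 (B-Myb), a transcription factor for G2/M genes, averaged 2783 ± 363.7 in T1 and 2040 ± 98.2 in T2 (log2 fold change 0.44, adjusted p = 0.0034, limma), a call lost without T1 replicate 1, T1 replicate 2, T2 replicate 1 or T2 replicate 3 (adjusted p of at most 0.0182).

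Foxm1, the other transcription factor of G2/M genes among the members, averaged 3395 ± 174.5 in T1 and 4178 ± 352 in T2 and lay at the threshold (log2 fold change -0.30, adjusted p = 0.0103, limma). Its adjusted p was 0.00467 without T2 replicate 3. The 5 genes of the MuvB core, Lin9, Lin37, Lin52, Lin54 and Rbbp4, gave 0 calls, with log2 fold changes between -0.15 and -0.06 (limma). At an unadjusted p under 0.05 the count was also 0, and edgeR and DESeq2 each called 0 of the 5.

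Top2a, the topoisomerase that untangles sister chromosomes, on chromosome 11 (98992943 to 99024189, minus strand), had 17940, 19018.5 and 17368.9 normalized counts in T1 and 30547.5, 30101.6 and 30584.6 in T2. The T2 libraries were tightly grouped and far above the T1 libraries, with a log2 fold change of -0.75 ± 0.07 (SE, adjusted p = 7.47e-06, limma). Cenpf, a large protein of the outer kinetochore, had 3444.1, 3044.8 and 3636.6 in T1 and 6012.2, 5097.8 and 5602.7 in T2. All T2 values were higher (log2 fold change -0.72 ± 0.09, SE, adjusted p = 6.27e-05, limma). Cenpe, a kinetochore motor, had 3935.1, 3860.4 and 3575.1 in T1 and 6314.7, 5792 and 6330.2 in T2, also without overlap (log2 fold change -0.70 ± 0.07, SE, adjusted p = 1.92e-05, limma).

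Of the 18 promoters of G2/M genes, 16.7% held E2F letters, 38.9% CHR letters and 83.3% CCAAT, and 38.9% held both of the last pair, where 6.02% of all promoters did. The promoters of Top2a (chr11:99024190-99024439, minus strand) and Cenpf (chr1:189688087-189688336, minus strand) are shown with CCAAT or ATTGG and the CHR letters in capitals. Top2a holds CCAAT or ATTGG 6 times, from 227, 189, 149, 98, 78 and 58 bases before the start, and CHR letters 4 times, from 179, 140, 120 and 23 bases before it. Cenpf holds CCAAT from 132 and 71 bases before the start.
Top2a: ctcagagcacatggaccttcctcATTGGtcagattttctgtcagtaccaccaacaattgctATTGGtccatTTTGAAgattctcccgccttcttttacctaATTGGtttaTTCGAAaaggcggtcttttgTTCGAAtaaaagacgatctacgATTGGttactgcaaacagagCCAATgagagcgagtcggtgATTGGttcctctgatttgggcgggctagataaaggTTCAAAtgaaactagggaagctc
Cenpf: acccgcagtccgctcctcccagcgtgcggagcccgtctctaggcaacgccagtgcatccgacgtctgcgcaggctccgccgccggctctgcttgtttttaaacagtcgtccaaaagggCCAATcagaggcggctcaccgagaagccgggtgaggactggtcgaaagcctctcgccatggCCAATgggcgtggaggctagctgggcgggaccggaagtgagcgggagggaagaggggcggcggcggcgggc

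Among the genes of the spindle checkpoint, which delays anaphase until chromosomes attach, 3 of 4 were called lower in T1. Over all genes tested 24.4% were, and 4 genes are too few to set against that share. Ttk averaged 1209 ± 64.5 in T1 and 1766 ± 199.9 in T2 (log2 fold change -0.54, adjusted p = 0.000814, limma), a call lost without a filter on low counts. Bub1 averaged 2616 ± 99.2 and 3265 ± 207.3 (log2 fold change -0.32, adjusted p = 0.0044), and Mad2l1 1911 ± 32.9 and 2378 ± 165.5 (log2 fold change -0.31, adjusted p = 0.0057). The call of Bub1 was lost without T1 replicate 1, T1 replicate 2 or T2 replicate 3 (adjusted p of at most 0.0223). That of Mad2l1 was lost without T1 replicate 1, T1 replicate 2, T2 replicate 1 or T2 replicate 3 (at most 0.0268). It was also lost under quantile normalization, without a filter on low counts, without a variance trend and with the replicate number as a block. Bub1b averaged 4622 ± 149.4 and 4157 ± 124.5, higher in every T1 library but not called (log2 fold change 0.15, adjusted p = 0.0742, limma).

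Of the Aurora kinases, 1 was called. Aurkb, of the chromosomal passenger complex, was lower in T1 (2369 ± 18.9 against 3004 ± 203, log2 fold change -0.34, adjusted p = 0.0028, limma), a call lost without T1 replicate 1, T1 replicate 2 or T2 replicate 1 (adjusted p of at most 0.0164). Aurka, of the spindle poles, averaged 3194 ± 463.3 and 2694 ± 188.5 and was not called (log2 fold change 0.24, adjusted p = 0.0845, limma). T1 replicate 3, at 2658.6, lay below 2 of the T2 libraries, and without it the adjusted p of Aurka was 0.00293.

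Of the phosphatases that activate CDKs, Cdc25b was lower in T1 (2397 ± 77.4 against 3194 ± 134.5, log2 fold change -0.41, adjusted p = 0.0006, limma), and Cdc25c averaged 749.4 ± 30.2 and 865.5 ± 103.9 and was not called (adjusted p = 0.122). Among the remaining spindle and chromosome genes, Kif11, the motor that separates spindle poles, was lower in T1 (3626 ± 120.6 against 4734 ± 158.6, log2 fold change -0.38, adjusted p = 0.000711, limma). Tpx2, a spindle assembly factor, had 6305.2, 6304.5 and 6137.1 in T1 and 7562.2, 6870.1 and 6885 in T2. Its groups did not overlap, but its log2 fold change of -0.18 ± 0.07 (SE) did not pass (adjusted p = 0.0408, limma). Birc5 (survivin) averaged 3700 ± 320 and 4336 ± 186.7 (adjusted p = 0.0317), and Kif20a, a motor of cytokinesis, 4267 ± 330.8 and 3818 ± 404.4 (adjusted p = 0.158), and neither was called.

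**Figure D5:**
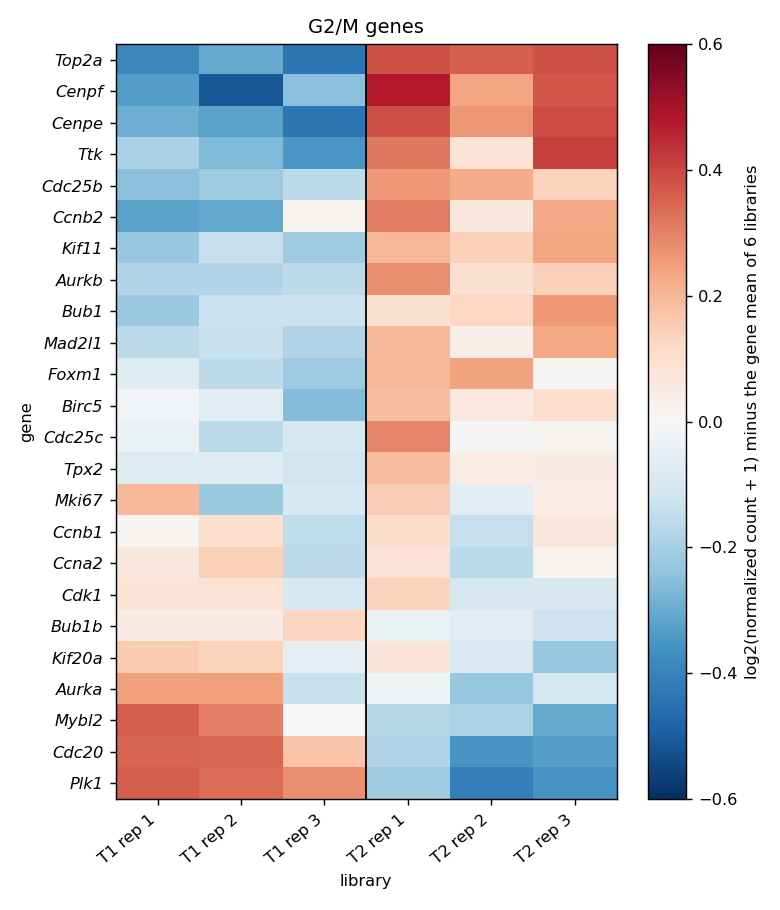
Log2(normalized count + 1) of each of the 24 G2/M genes (rows) in each library (columns), as the difference from the gene's mean over the 6 libraries (colour scale, log2 units, red above and blue below the mean). The rows are ordered by log2 fold change from Top2a (-0.75) to Plk1 (0.65). T1 replicate 3 is paler than the other T1 libraries for Mybl2 and Ccnb2. The rows of Mki67, Ccnb1, Ccna2 and Cdk1 show no division between the populations.

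A list of 34 other mitotic genes, all tested, was likewise chosen with earlier results known. Of these 15 were called (44.1%, against 49.5% of all genes tested), 2 higher and 13 lower in T1, with a median log2 fold change of -0.11. Ncaph, a subunit of condensin, averaged 1926 ± 87.2 in T1 and 3574 ± 306.9 in T2 (log2 fold change -0.89, adjusted p = 8.65e-06, limma). Nuf2, of the NDC80 kinetochore complex, averaged 1718 ± 74.4 and 3034 ± 155.5 (log2 fold change -0.82), and Smc4, another condensin subunit, 7914 ± 778.7 and 12640 ± 1189 (log2 fold change -0.68). The 2 genes higher in T1 were Cdca8 (borealin), of the chromosomal passenger complex, at 3133 ± 210.4 against 1941 ± 112 (log2 fold change 0.69, adjusted p = 4.35e-05, limma), and Espl1 (separase), at 3427 ± 130.3 against 2373 ± 165.5 (log2 fold change 0.53).

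Across libraries, the median deviation of the 55 members from their own means was -0.05, -0.12 and -0.14 log2 units in T1 replicates 1, 2 and 3, and 0.18, 0.06 and 0.08 in T2 replicates 1, 2 and 3. The T1 libraries were below the T2 libraries for the G1 group, the E2F and replication group and the G2/M group alike, and over all genes tested the library medians lay between -0.0005 and 0.0058. T2 replicate 1 was the highest library in each group. Of the members, 17 share exonic bases with a gene on the other strand, among them Ccnd1, Ccnd2, Kif20a, Cdk4, Ccne2 and Rb1. The library kit does not mark strand, so reads in the shared bases cannot be told apart from that gene's.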

How the data were processed

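RNA of T1 and T2 cells (3 replicates each) was sequenced from poly(A) libraries made with a kit that does not mark strand. The authors used Trimmomatic for adapters, TopHat2 for alignment to mm10, HTSeq for read counts of genes and the size factors of DESeq2 for scaling. The versions, annotation and strand setting are not given in the sources used here. The deposited signal values are therefore normalized counts, and 100% of them were whole reads, within 0.02 reads, after division by the worth of 1 read in each library, found from the low values. Among the 24129 names, 27 were dates in place of symbols, of which 2 occurred more than once.

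Values were compared with limma 3.58.1 in R 4.3.3 (variance trend, log2(normalized count + 1), genes with a mean of at least 10), with Benjamini-Hochberg adjustment. A gene was called at an adjusted p under 0.01, and the study's filter of an absolute log2 fold change above 2 was applied apart. On the recovered reads edgeR 4.0.16 called 5716 of 11514 genes (5660 shared with limma) and 29 members, and DESeq2 1.42.0 called 6067 (5645 shared) and 33 members. Levels per kb used exonic lengths of the GENCODE annotation of the same build, with the exons of all transcripts of a gene merged. Promoters came from RefSeq (GRCm38.p6).

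The members and lists were chosen with earlier results of these data known. Each member was named once, with values per library for those past both filters, the 5 called with the largest fold change and the 3 with the highest mean in each phase, CDK inhibitors, Mki67, Pcna, Ccnd1 and members under a mean of 10. Of each related list the 4 called genes with the largest fold change were given values, except for 1 that is not reported here. Tfdp1 and Espl1 were given values after these had been seen. The alternatives were pseudocounts of 0.5 and 5, no filter or a mean of at least 50, quantile and TMM normalization, no variance trend, edgeR, DESeq2, the replicate number as a block, and each library left out in turn. Wider thresholds were also applied. The replicates differed by more than counting noise (chi-square per degree of freedom 8.26 to 26.1 between pairs). P-values measure the spread between these libraries.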

Additional observations from a re-analysis of the deposited data

How the results depend on the processing

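Without a filter on low counts, the calls higher and lower in T1 were 4 and 12 among the members, 1 and 4 among E2F and replication genes, and 1795 and 1717 over all genes. In the same analysis the calls lower in T1 were 5 among G2/M genes and 5 among the other mitotic genes, and the calls higher in T1 were 1 among the other G1 regulators and 1 among the other replication genes. In limma without a variance trend, the calls were 5 and 13 among the members and 2 and 4 among E2F and replication genes, with 6 lower among G2/M genes and 1 higher among the other replication genes. With the wider thresholds (adjusted p under 0.05, log2 fold change beyond 1 in size), 3 members were lower in T1. Cdk4, not called, had a log2 fold change of -0.012 under quantile normalization, against 0.05 as reported. DESeq2 called 4 more members, Cdkn2c, Gmnn, Tyms and Foxm1, all lower in T1. The cause was not tested.

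With each library left out, which leaves fewer samples, the members called ranged from 4 to 9 higher and from 15 to 22 lower in T1. The E2F and replication genes ranged from 1 to 4 higher and from 5 to 7 lower, and the G2/M genes from 2 to 4 higher and from 6 to 10 lower. The other replication genes ranged from 1 to 4 higher in T1.

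The replicate numbers were not taken to pair the libraries. Deviations of T1 and T2 libraries with the same number correlated at 0.057, 0.172 and 0.104, and those with different numbers at -0.152 to 0.072. Whether libraries with the same number shared a batch was not tested. With the replicate number as a block, 8 members were called higher and 21 lower, with Foxm1 gained and Mad2l1 lost, and 5 of the 6 libraries correlated best with their own number. Of the counts recomputed under an alternative, 325 stayed within 1.5 times the reported one and 31 did not. No scaling moved the median of all genes by more than 0.1. Depth set a floor of 3 reads for Cdkn2a and Cdkn2b, and with 3 libraries per population small differences may be missed.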
